A study of Rattus norvegicus with 6 samples.

Results

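The genes described here are the collagens and laminins, the structural proteins of the extracellular matrix, in primary rat Schwann cells stimulated with soluble Neuregulin1 (NRG1). They were taken as every row of the count tables with a symbol of the form Col, number, a, number or Lama, Lamb or Lamc with a number, which gave 35 of 17327 rows, 27 collagens and 8 laminins. Schwann cells, the glia of peripheral nerves, were isolated from sciatic nerves of adult Wistar rats and grown with forskolin, an agent that raises cAMP, and a neuregulin, which the sample labels give as glial growth factor and the study's methods as soluble NRG1β1, the ligand later used as the stimulus. After a night at confluence in low serum (2%), with forskolin kept at 10 μM, the dishes were given NRG1β1 at 10 nM (NRG1 samples) or only the buffer of the ligand (mock samples), and RNA was taken 6 h later. The 3 independent preparations, called cultures 1, 2 and 3, each gave 1 mock and 1 NRG1 sample, and the counts were compared within cultures. Both groups therefore had forskolin and earlier neuregulin in common.

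Collagens are trimers built around a triple helix of repeated glycine triplets. Fibrillar collagens form the fibrils of the endoneurium, the associated (FACIT) collagens sit on the surface of these fibrils, and collagen IV forms the sheet of the basement membrane. Laminins are cross-shaped trimers of an alpha, a beta and a gamma chain, and they polymerise on the Schwann cell surface, where the basement membrane is needed for axon sorting and myelination. In peripheral nerve, collagens I and III are also typical products of endoneurial fibroblasts.

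For orientation, the region upstream of the start site is shown for 3 members on which the results below turn. Col11a1 and Col9a2 fell with NRG1, and Col8a1 was counted in 1 culture. The RefSeq sequences used here held an upstream window for 28 of the 35 genes (build GRCr8, which is not the rn5 build of the counts). Each line gives the 250 bases before the start, 5′ to 3′ on the strand of the gene, with matches to CCAAT or GGGCGG on either strand in capitals.

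Col11a1 (chr2:204508886-204509135, + strand): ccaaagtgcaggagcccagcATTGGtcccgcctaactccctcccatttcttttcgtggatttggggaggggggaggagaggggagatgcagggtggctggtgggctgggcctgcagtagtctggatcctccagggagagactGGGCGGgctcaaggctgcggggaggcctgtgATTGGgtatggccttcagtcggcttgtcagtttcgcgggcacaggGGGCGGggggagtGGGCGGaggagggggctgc
Col9a2 (chr5:139892548-139892797, + strand): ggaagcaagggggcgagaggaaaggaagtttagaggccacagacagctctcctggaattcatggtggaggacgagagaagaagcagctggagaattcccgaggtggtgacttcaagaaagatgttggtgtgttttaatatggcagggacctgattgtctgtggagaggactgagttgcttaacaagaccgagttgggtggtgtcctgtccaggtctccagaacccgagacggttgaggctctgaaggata
Col8a1 (chr11:56246532-56246781, + strand): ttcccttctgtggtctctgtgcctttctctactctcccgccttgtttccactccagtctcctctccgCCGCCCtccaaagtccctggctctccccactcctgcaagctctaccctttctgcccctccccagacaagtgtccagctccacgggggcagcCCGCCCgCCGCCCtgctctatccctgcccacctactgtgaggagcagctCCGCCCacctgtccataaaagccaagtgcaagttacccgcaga

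Col11a1 held 3 copies of GGGCGG, the GC box, and 2 of CCAAT. Col8a1 held 4 copies of GGGCGG, and Col9a2 held neither motif. GGGCGG was present in 15 of the 28 windows (53.6%), against 32.4% of 27457 RefSeq windows of the same length, and CCAAT in 7 (25.0%), against 34.3%. TGANTCA, the AP-1 motif, which reads the same on both strands, was in none of the 28 and in 6.36% of all windows. These letter matches describe the windows only.

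Counts on genes ranged from 6821590 to 15475018 per library, and a floor of 3 counts corresponded to between 0.194 and 0.444 CPM. CPM here means counts scaled to library size with TMM factors. Counts rise with transcript length, and no lengths were used, so levels are compared across samples of 1 gene and not between genes. The 8 Schwann cell markers used here (S100b, Sox10, Erbb3, Ngfr, Cdh19, Gfra3, Egr2 and Mbp) were counted in every library. Culture 1 stood apart. Its summed Schwann markers were 3077 CPM in mock and 2806 in NRG1, against 5289 to 6888 in the samples of cultures 2 and 3. Its summed level of 10 fibroblast markers was 2793 CPM in mock and 2432 in NRG1, against 7.42 to 14.2 in the other 4 samples, in which 6 of the 10 had no count at all. Of these 6, Dcn, Thy1 and Lum were counted in culture 1, Dpt had 1 count there, and Tcf21 and Ptgis were at 0 there too. Pdgfra and Mfap5 were higher in culture 1 as well, while Fbln1 and Pi16 were at similar levels in the mock samples of the 3 cultures. The 8 mural cell markers summed to 3190 and 3259 CPM in culture 1 and to 232 to 416 elsewhere, with Acta2 at 1813 and 1845 CPM in culture 1 and at most 4.59 elsewhere. Endothelial markers summed to at most 15.4 CPM and macrophage markers to at most 4.58 CPM in any sample, with 4 of 8 and 3 of 8 at 0 throughout, and the 5 perineurial markers summed to between 108.1 and 196.7 CPM, of which Slc2a1 rose and Itgb4 fell with NRG1. With NRG1, 5 of the 8 Schwann markers fell (S100b, Cdh19, Gfra3, Egr2 and Mbp) and 0 rose, by the test described below. By the same test 5.51% of all tested genes fell and 6.31% rose. In bulk RNA, fewer cells of a type and less RNA per cell cannot be told apart, and the part of these other cells and of the Schwann markers in the matrix results was not tested.

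**Figure D1:**
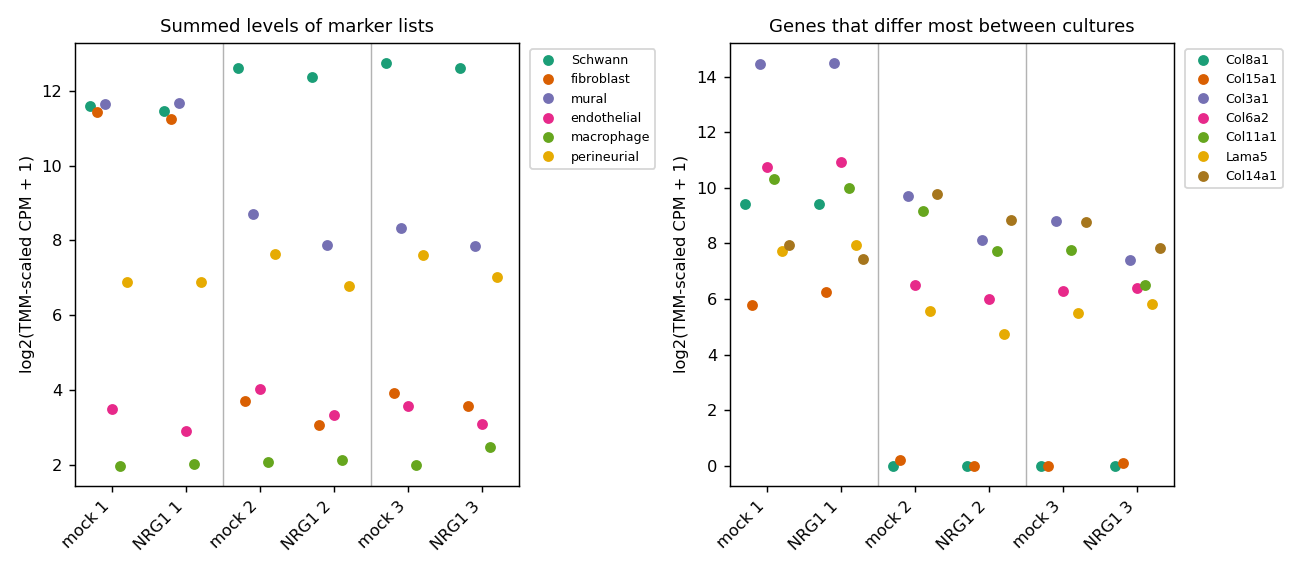
Left, summed levels of 6 marker lists, and right, levels of 7 collagen and laminin genes, in each sample (log2 of TMM-scaled CPM + 1 on the y axis, the 6 samples on the x axis, vertical lines between cultures, points shifted sideways for legibility). The summed fibroblast and mural markers were highest in both samples of culture 1, where the summed Schwann markers were lowest. Col8a1, Col15a1, Col3a1, Col6a2, Col11a1 and Lama5 were also highest there, while the mean of Col14a1 was lowest.

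Members of the 2 families took 8.40% and 8.84% of all gene counts in the mock and NRG1 samples of culture 1, and between 3.89% and 5.94% in those of cultures 2 and 3. Col1a1, the alpha1 chain of collagen I, had the highest counts of all members and alone took between 1.35% and 3.10% of a library. Of the 35 genes, 19 passed the filter on low counts and were tested. The other 16 were not, for unlike reasons. At most 10 counts over the 6 samples together were found for 10 of them, namely Col1a2, Col2a1, Col4a3, Col4a4, Col6a4, Col9a1, Col13a1, Col26a1, Lama1 and Lamb3, and Lamc3 had at most 4 counts in any sample. Another 4, Col8a1, Col15a1, Col17a1 and Col23a1, were counted almost entirely in culture 1. The row of Col1a2, the chain that pairs with Col1a1 in collagen I, held 2 counts in NRG1 sample 2 and 0 in the 5 other libraries, while Col1a1 was at 13413 CPM or more in every sample. How reads of Col1a2 were treated in the mapping was not tested, and its row is not read as a level. Crtap, a widely expressed chaperone partner of collagen prolyl hydroxylation, was likewise at 0 in all 6 libraries. The partner chains Col4a2, Lama2 and Lamb1 were not analysed here.

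**Figure D2:**
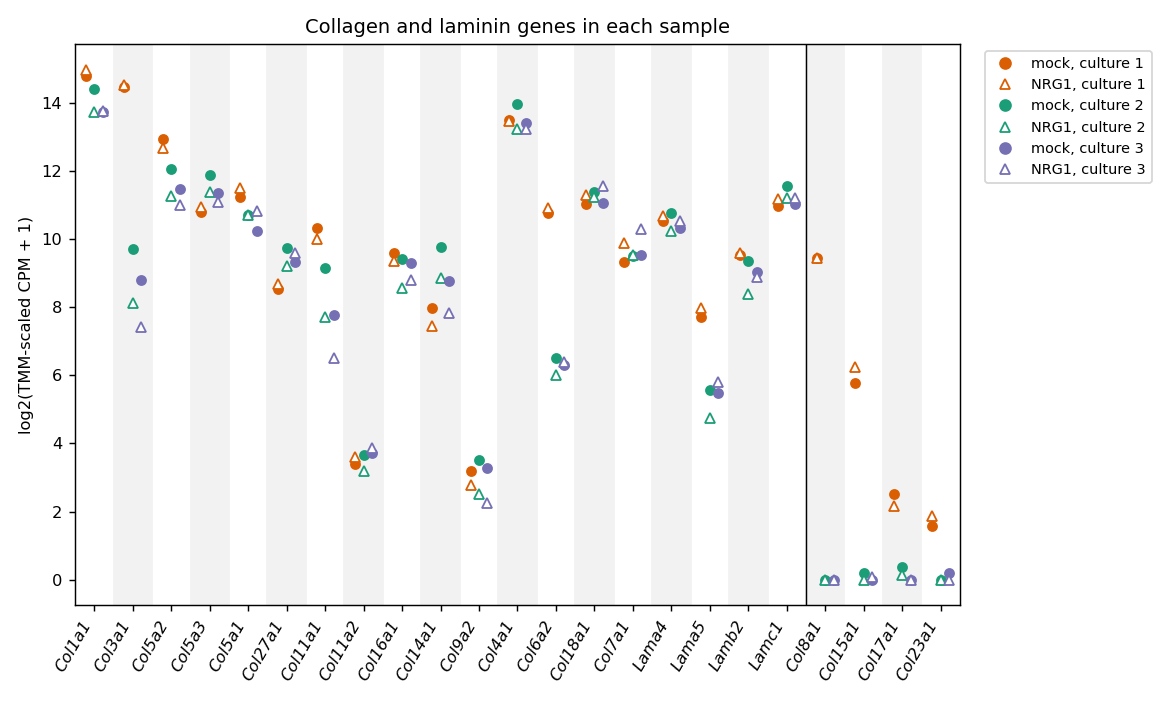
Levels of the 19 tested genes, ordered by family, and, right of the line, of the 4 genes counted almost entirely in culture 1 (y axis, log2 of TMM-scaled CPM + 1). Filled circles are mock and open triangles NRG1 samples, coloured by culture. Col3a1, Col6a2 and Lama5 separate by culture, while Col4a1, Col18a1, Lama4 and Lamc1 lie close together in the 6 samples.

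Col14a1, Col11a1 and Col9a2, which encode fibril-associated or minor fibrillar collagens, fell with NRG1, and none of the 4 tested laminins passed the test. With an adjusted p of at most 0.01 in edgeR's quasi-likelihood test with the culture as a block, these 3 of the 19 tested members fell and 0 rose, while over all 9740 tested genes 5.51% fell and 6.31% rose. With an absolute log2 fold change over 1 required as well, Col11a1 alone remained among the lower (1.91% of all tested genes) and no member among the higher (1.56%). The median log2 fold change of the 19 members was -0.16, beside -0.03 over all tested genes, and 15 of the 19 had a negative value (78.9%, beside 52.8% of all). An unadjusted p under 0.05 was found for 8 of the 19 members, beside 35.7% of all tested genes.

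Col14a1 encodes a FACIT collagen that binds the surface of collagen I fibrils. It was at 248.0, 871.1 and 436.4 CPM in mock samples 1, 2 and 3 and at 174.8, 460.8 and 226.2 CPM in NRG1 samples 1, 2 and 3. NRG1 was the lower sample in every culture, although the groups overlapped because culture 2 had the highest level in both. The log2 fold change was -0.79 (SE 0.13, adjusted p = 0.000712), and the log2 ratios in cultures 1, 2 and 3 were -0.50, -0.92 and -0.95. Without replicate 3 the adjusted p was 0.0144.

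Col11a1, a fibrillar chain that controls the nucleation and width of fibrils, had the largest fall. Its level was 1283, 569.0 and 219.2 CPM in mock and 1024, 208.8 and 89.7 CPM in NRG1 samples of cultures 1, 2 and 3. Again NRG1 was lower in each culture and the groups overlapped, because culture 1 had the highest levels. The log2 fold change was -1.02 (SE 0.18, adjusted p = 0.00129), with ratios of -0.32, -1.45 and -1.29. The decrease was thus smallest in culture 1, a difference that was not tested. Leaving out replicate 3 moved the adjusted p to 0.0111, and the log2 fold change was -1.37, -0.79 and -0.86 without replicates 1, 2 and 3, so that the fold threshold was met only where replicate 2 and replicate 3 were both kept.

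Col9a2, a chain of collagen IX, another FACIT collagen best known from cartilage, was near the lower end of what was tested, with 42 to 111 counts per library. It was at 8.15, 10.5 and 8.75 CPM in mock and 5.87, 4.72 and 3.74 CPM in NRG1 samples, and every mock value lay above every NRG1 value. The mean was 9.13 ± 1.22 CPM in mock and 4.78 ± 1.06 CPM in NRG1 samples (SD, n = 3). Its log2 fold change was -0.97 (SE 0.23, edgeR adjusted p = 0.0075). This call was the least firm of the 3, since the adjusted p was 0.0288 without replicate 2, 0.105 without replicate 3 and 0.0278 in DESeq2 with the replicate block.

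**Figure D3:**
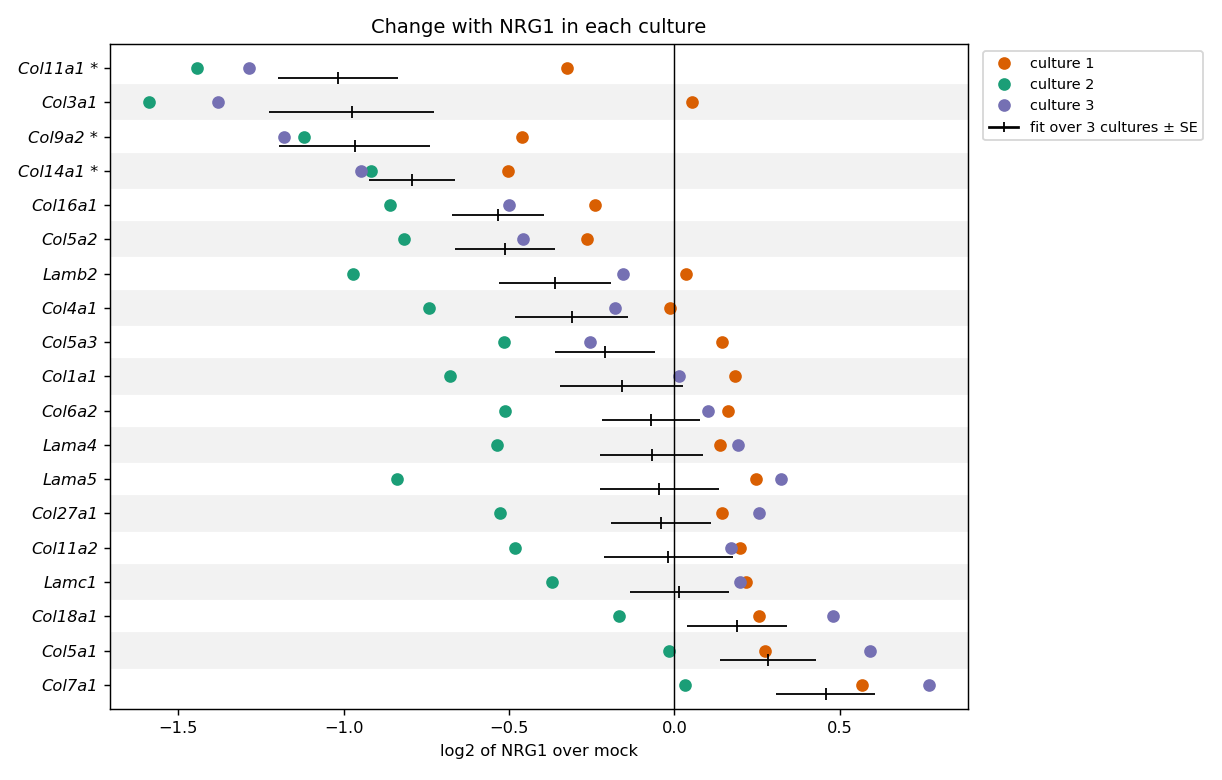
Log2 of NRG1 over mock in culture 1, 2 and 3 (coloured points) and the log2 fold change of the fit with its standard error (black bars) for the 19 tested genes, ordered by that value. Asterisks mark an adjusted p of at most 0.01. The points of culture 2 lie furthest left for 17 of the 19 genes, and those of Col3a1 span from -1.59 to 0.05.

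Among the remaining fibrillar collagens, Col3a1, the chain of collagen III, differed most between cultures. It was counted at 22402 CPM in mock and 23218 CPM in NRG1 of culture 1. In culture 2 it was at 837.8 CPM in mock and 278.6 in NRG1, and in culture 3 at 442.5 and 169.9. Culture 1 did not decrease, with a log2 ratio of 0.05, while cultures 2 and 3 had ratios of -1.59 and -1.38. Over the 3 cultures the log2 fold change was -0.98 (SE 0.25, adjusted p = 0.0118), just short of the threshold, and the alternatives lay on both sides of it. The adjusted p was 0.00976 with RLE in place of TMM normalisation, 0.175 in DESeq2 with the block, and 0.119 and 0.222 without replicates 2 and 3. Without replicate 1, Col3a1 fell by 1.48 on the log2 scale (SE 0.19, adjusted p = 3.16e-13). That fit rests on 2 pairs and 1 residual degree of freedom, with a spread borrowed from other genes, and it removes the culture with the fibroblast markers at 2432 CPM or more. Whether the change of Col3a1 differed between cultures was not tested.

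Col5a2, a chain of collagen V and the neighbour of Col3a1 on chromosome 9 in RefSeq's GRCr8 gene order, was at 7765, 4279 and 2829 CPM in mock and 6470, 2428 and 2061 CPM in NRG1 samples. It was lower with NRG1 in each culture and had a log2 fold change of -0.51 (SE 0.15, adjusted p = 0.025). The adjusted p of Col5a2 was 0.00415 in DESeq2 with the block, and 0.00802, 0.15 and 0.272 without replicates 1, 2 and 3. Col5a1 had a log2 fold change of 0.28 (SE 0.15, adjusted p = 0.181) and Col5a3 of -0.21 (SE 0.15, adjusted p = 0.345). Neither passed. Col5a3 was at 1763, 3788 and 2608 CPM in mock and at 1947, 2650 and 2184 CPM in NRG1 cells, so the groups overlapped. Col1a1 was at 28250, 21494 and 13620 CPM in mock and 32087, 13413 and 13754 CPM in NRG1 samples, and its log2 fold change was -0.16 (SE 0.19, adjusted p = 0.578). Its ratio was -0.68 in culture 2 and 0.18 and 0.01 in cultures 1 and 3, so that the value depends on culture 2, without which it was 0.10. Col27a1 and Col11a2 had fitted values of -0.04 and -0.02.

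Col16a1, the third tested FACIT collagen, was at 773.1, 685.6 and 631.3 CPM in mock and 654.0, 377.4 and 446.5 CPM in NRG1 samples. NRG1 was lower in each culture, and the log2 fold change of -0.53 (SE 0.14, adjusted p = 0.013) missed the threshold. The adjusted p was 0.00431 in DESeq2 with the block, and 0.0027, 0.0648 and 0.0908 without replicates 1, 2 and 3.

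In the basement membrane collagens the only tested chain of collagen IV was Col4a1. It was at 11472, 15921 and 10892 CPM in mock and 11362, 9525 and 9618 CPM in NRG1 samples, and its log2 fold change was -0.31 (SE 0.17, adjusted p = 0.21). The ratio was -0.74 in culture 2 and -0.014 and -0.18 in cultures 1 and 3. Col18a1, the multiplexin of basement membranes from which endostatin is cleaved, had 0.19 (SE 0.15, adjusted p = 0.398). Col7a1, the collagen of anchoring fibrils, was the 1 tested member that was higher with NRG1 in each of the 3 cultures. It was at 635.3, 718.4 and 739.4 CPM in mock and 940.4, 734.9 and 1260 CPM in NRG1 samples, where culture 2 barely differed. Its log2 fold change of 0.46 (SE 0.15, adjusted p = 0.0388) did not pass. Leaving out replicates 1, 2 and 3 gave log2 fold changes of 0.40, 0.67 and 0.32, with adjusted p-values of 0.115, 0.0037 and 0.361.

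None of the 4 tested laminins passed. Lama4, the alpha4 chain typical of immature Schwann cells and vessels, was at 1476, 1733 and 1281 CPM in mock and 1625, 1193 and 1462 CPM in NRG1 samples. Lamc1, the gamma1 chain shared by most laminins, was at 1990, 3012 and 2068 CPM in mock and 2312, 2330 and 2371 CPM in NRG1. In both genes the groups overlapped, and the fitted log2 fold changes were -0.07 (SE 0.16) and 0.015 (SE 0.15). Lamb2, the beta2 chain, had the largest value of the 4, -0.36 (SE 0.17, adjusted p = 0.138). In culture 2 it went from 651.5 to 331.9 CPM. Lama5, the alpha5 chain, had -0.05 (SE 0.18), with a ratio of -0.84 in culture 2 and of 0.25 and 0.32 in cultures 1 and 3.

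The lower values in culture 2 ran through nearly all members. There the NRG1 sample was below its mock sample in 18 of the 19 tested members, beside 52.4% of all tested genes. The median log2 ratio in culture 2 was -0.68, beside -0.03 over all tested genes. In cultures 1 and 3 the median ratios were 0.14 and 0.01, beside -0.03 and -0.009 over all tested genes. In these 2 cultures 6 and 9 of the 19 were below mock, beside 53.8% and 51.0% of all tested genes. Col14a1, Col11a1, Col9a2, Col16a1, Col5a2 and Col4a1 were lower with NRG1 in all 3 cultures. Without replicate 1, 6 of 19 members fell, with Col3a1, Col16a1 and Col5a2 added to the 3 above, and 0 rose, beside 6.05% and 5.94% of the 9926 genes then tested. Without the block the test called no member by either rule, with a smallest adjusted p among members of 0.222, 1 member at an unadjusted p under 0.05 and no call among all tested genes.

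Matrix RNA also differed between the cultures. An F test of the culture in the same fit, which sets differences between cultures against the residual spread of the 3 pairs, called 9 of the 19 tested members (47.4%) at an adjusted p of at most 0.01, beside 23.4% of all tested genes. Of these 9, 7 were highest in culture 1. Since each culture is 1 preparation with 2 samples, the test compares these dishes and no wider condition.

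Col3a1 had a culture mean of 22810 CPM in culture 1 and 306.2 in culture 3, a ratio of 74.5 (adjusted p = 1.13e-09). Col6a2, a chain of the beaded filaments of collagen VI, was at 1728, 90.1 and 77.3 CPM in mock and 1934, 63.0 and 83.0 CPM in NRG1 samples of cultures 1, 2 and 3, a ratio of 23.9 (adjusted p = 4.43e-11). Lama5 was at 209.6, 46.2 and 44.0 CPM in mock and 248.5, 25.7 and 55.1 CPM in NRG1 samples, a ratio of 6.37 (adjusted p = 2.11e-07). In these 3 genes, and in Col11a1, Col1a1, Col5a1 and Col5a2, both samples of culture 1 lay above all 4 others. Col11a1 had a ratio of 7.47 between cultures 1 and 3. Col14a1 had the other order, with the highest mean, 666.0 CPM, in culture 2 and the lowest, 211.4 CPM, in culture 1, a ratio of 3.15 (adjusted p = 5.06e-06). Col27a1 was also lowest in culture 1. The called genes Col1a1, Col5a1 and Col5a2 differed by factors of 2.20, 1.77 and 2.91 and were highest in culture 1.

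For 4 genes left out of the test the counts lay almost entirely in culture 1. Col8a1, a short-chain collagen of vessels and mesenchymal cells, had 5162 and 5178 counts in the samples of culture 1 and 0 in the other 4, so that it was at least 1554-fold higher in culture 1 than the floor of 3 counts per library allows elsewhere. Col15a1, a multiplexin, had 401 and 561 counts in culture 1 and at most 1 in any other sample. Col17a1, a transmembrane collagen, had 35 and 26 counts against at most 2, and Col23a1, another transmembrane collagen, 15 and 20 against at most 2. These 4 are singled out for their counts by culture, which are a description with no test. With no filter on low counts the adjusted p of the change with NRG1 was 0.949 for Col8a1 and 0.179 for Col15a1. The summed fibroblast and mural markers given above were also highest in culture 1, although not every listed marker was. The part of fibroblasts and mural cells was not tested.

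The members with the least difference between cultures were Col18a1, Lama4, Col9a2, Col4a1 and Lamc1, with ratios of the highest to the lowest culture mean of 1.12, 1.13, 1.22, 1.24 and 1.24. Without replicate 1 the culture test called 3 of 19 members between cultures 2 and 3, Col11a1, Col14a1 and Col3a1, beside 2.47% of all genes tested. These 3 were all higher in culture 2.

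The genes that process, link or bind collagens and laminins were counted from lists written from general knowledge, with earlier results of these data known. Of 37 symbols listed for collagen processing, older names of the same genes included, 30 matched a row and 26 were tested. Of these 26, 4 rose and 1 fell, beside 6.31% and 5.51% of all tested genes. PCOLCE2, an enhancer of the proteinase that trims the procollagen C-terminus, rose from 8.82, 12.7 and 19.0 CPM in mock to 59.5, 109.4 and 98.7 CPM in NRG1 samples 1, 2 and 3. Its log2 fold change was 2.72 (SE 0.16, adjusted p = 1.66e-07), and the groups did not overlap. Loxl2, an oxidase that cross-links collagens, rose by 0.92 (SE 0.16, adjusted p = 0.00102), P3h4, a partner in lysine hydroxylation of collagen, by 0.66 (SE 0.12, adjusted p = 0.00179) and Plod3, a lysyl hydroxylase with glycosyltransferase activity, by 0.52 (SE 0.12, adjusted p = 0.00571), all as log2 values. Plod2, the lysyl hydroxylase of the telopeptides, fell from 200.2, 356.6 and 191.3 CPM to 122.9, 143.3 and 97.3 CPM, a log2 fold change of -1.0 (SE 0.13, adjusted p = 0.000149). The median log2 fold change of the 26 genes was 0.03. The collagen chaperone Serpinh1 and the prolyl hydroxylase subunits P4ha1, P4ha2 and P4hb did not pass. Without replicate 1, 5 of the 26 rose and 4 fell, beside 5.94% and 6.05% of the 9926 genes then tested. Tll1, Adamts2 and Pcolce were the additional lower genes, and P4ha3 and Adamts14 the additional higher ones.

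Among 6 tested partners of the basement membrane and matrix, 1 rose and 2 fell, beside 6.31% and 5.51% of all tested genes. Nid2, a nidogen that joins laminin and collagen IV networks, fell by 0.67 on the log2 scale (SE 0.15, adjusted p = 0.00589), from 552.8, 1668 and 1129 CPM to 451.3, 787.7 and 729.5 CPM. Agrn, the proteoglycan agrin, fell by 0.67 (SE 0.16, adjusted p = 0.00721). Pxdn, the peroxidase that cross-links collagen IV, rose by 0.63 (SE 0.14, adjusted p = 0.0052). Sparc and Fn1 did not pass. The calls of Nid2 and Agrn were lost without replicate 2, with adjusted p-values of 0.03 and 0.0329, and those of Nid2 and Pxdn without replicate 3, with 0.0418 and 0.114.

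Of the 10 tested receptors, 1 rose and 1 fell, beside 6.31% and 5.51% of all tested genes. These were Itga7, which rose, and Itgb4, which fell, both laminin-binding integrin subunits. Itga7 was at 534.7, 627.3 and 1140 CPM in mock and 1135, 1120 and 1744 CPM in NRG1 samples, and its log2 fold change was 0.84 (SE 0.14, adjusted p = 0.000597). Itgb4, the partner of Itga6 and also one of the perineurial markers above, went from 61.9, 153.3 and 149.5 CPM to 22.4, 52.4 and 60.2 CPM, a log2 fold change of -1.44 (SE 0.12, adjusted p = 4.59e-06). The dystroglycan gene Dag1 and Itgb1 did not pass, with values of 0.05 (SE 0.14) and 0.03 (SE 0.14). The calls of Plod3, without replicates 1 or 3, and of Loxl2, without replicate 3, were also lost, with adjusted p-values of 0.023, 0.0358 and 0.0127.

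**Figure D4:**
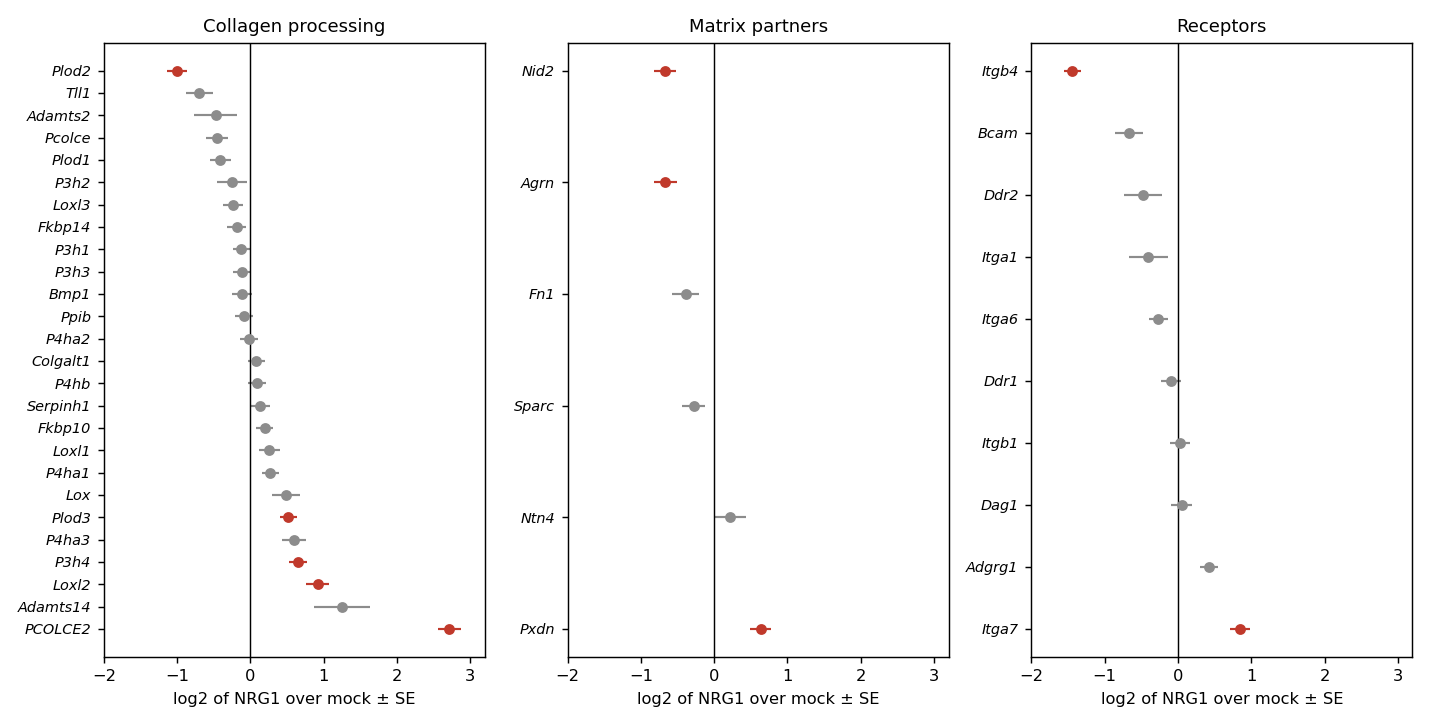
Log2 fold change of NRG1 over mock with its standard error (x axis) for tested genes of collagen processing, matrix partners and receptors. Red marks an adjusted p of at most 0.01. PCOLCE2 lies furthest right at 2.72 and Itgb4 furthest left at -1.44.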

How the data were processed

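Poly(A) RNA of 3 mock and 3 NRG1 samples was sequenced (Illumina). Per the labels and the study's methods, the authors used TopHat2 2.0.10 to map reads to rn5 and HTSeq with RefSeq genes to count them (strand setting not given in the sources used here), and deposited raw counts without normalisation. Lines for reads outside genes, in several genes or in several places held 50.1% to 53.0% of alignments and were left out, so reads of near-identical copies were not counted.

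Condition and culture number came from the sample titles, and the study names 3 independent preparations. Deviations from the group mean of same-numbered samples correlated across genes with r of 0.91, 0.67 and 0.81, against -0.80 to 0.51 for other pairs. No pair of samples matched within sampling noise (smallest ratio of chi-square to its degrees of freedom, 21.4).

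From the deposited counts, edgeR 4.0.16 (R 4.3.3) fitted quasi-likelihood models on all genes with filterByExpr at a minimum count of 10 (9740 genes kept), TMM, culture as a block and condition. P-values were adjusted by Benjamini-Hochberg, with 0.01 as threshold and, where stated, an absolute log2 fold change over 1. SE is the log2 fold change over the square root of F. Single-culture ratios used a prior count of 2. Alternatives were no block, DESeq2 1.42.0, RLE, no filter, 0.05, the fold inside the test and leaving out each replicate. The code was tested on simulated data.

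Values in all samples were given for members with an adjusted p of at most 0.01, for the 5 with the highest CPM and for the 5 with the largest ratio between cultures. The further members were added with their values seen. Members and lists were chosen with earlier results of these data known. Floors cover counting error only, while the SE also holds the residual spread between pairs. Of the genes listed, 1 untested member and 2 Schwann cell markers are not reported here, and the marker sums leave those 2 out.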

Additional observations from a re-analysis of the deposited data

How the results depend on the processing

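The fit with the replicate block was the main one. With no replicate block, 0 members were lower, by the adjusted p alone or with the fold threshold. With the fold threshold inside the test, 0 members were lower. An adjusted p of at most 0.05 gave 1 member higher and 6 lower. The share of all tested genes at that threshold is not given here, so these counts describe the members only. With no low-count filter, 6 members were lower and 16 differed between cultures, beside 6.53% and 27.0% of the 13129 genes in that test. None of the 15 members that entered it passed for NRG1. DESeq2 and RLE gave counts within 1.5 times the main ones.

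Leaving out each replicate in turn gave 0 to 3 members lower with both thresholds, 0 to 6 lower and 0 to 1 higher by the adjusted p alone, and 3 to 15 differing between cultures. The shares over all genes shifted too. Without replicates 1, 2 and 3, 6.05%, 3.79% and 2.49% of all tested genes were lower by the adjusted p alone. In the same fits 2.47%, 36.6% and 22.6% differed between cultures. With both thresholds 299 of 9926, 122 of 10339 and 140 of 10160 genes were lower. By the adjusted p alone, 6 members were lower without replicate 1 and 0 without replicate 3.

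Signs of log2 fold changes near 0 turned. With no replicate block they were 0.13 for Col6a2, 0.13 for Lama5 and -0.012 for Lamc1. Leaving out 1 replicate gave ranges of -0.12 to 0.19 for Col11a2, -0.33 to 0.10 for Col1a1, -0.17 to 0.20 for Col27a1, -0.20 to 0.14 for Col6a2, -0.18 to 0.17 for Lama4, -0.23 to 0.28 for Lama5 and -0.084 to 0.21 for Lamc1. None of these genes passed in the main fit, and the cause of the turns was not tested. Of the values recomputed for single genes, 157 kept sign and side of the threshold, 25 lost the call, 10 gained it and 11 turned.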

Other observations

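Several genes outside the collagens and laminins that build, cleave or bind collagen showed the same uneven levels between cultures. Itga11, an integrin subunit that binds fibrillar collagen, was at 677.8 CPM in mock and 680.7 CPM in NRG1 of culture 1 and had 0 counts in the other 4 libraries. Lox, the main collagen cross-linking oxidase, was at 141.8 and 165.7 CPM in culture 1 and between 1.97 and 4.78 CPM elsewhere. Fn1, fibronectin, was at 8385 and 9678 CPM in culture 1 and between 434.2 and 861.6 CPM elsewhere. Pcolce was at 677.3 and 654.8 CPM in culture 1 and between 32.5 and 68.8 CPM elsewhere. In the culture test 14 of the 26 tested processing genes were called, beside 23.4% of all tested genes, and 12 of these were highest in culture 1. Of 10 tested receptors 9 were called, and 2 of these were highest in culture 1. The summed fibroblast and mural markers were also highest in culture 1, and their part was not tested.

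Fn1 and Adamts2, the procollagen N-proteinase, were, like Col3a1, not lower with NRG1 in culture 1 and lower in cultures 2 and 3. Their log2 ratios of NRG1 over mock were 0.21 and 0.32 in culture 1, -0.91 and -1.91 in culture 2, and -0.47 and -0.82 in culture 3. Neither passed over 3 cultures, with adjusted p-values of 0.145 and 0.259, and both fell without replicate 1, with adjusted p-values of 0.0024 and 0.000108. These were chosen after their values were seen, and whether the changes differed between cultures was not tested.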
